A study of Mus musculus with 2 samples.

Results

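C1q-positive tumor macrophages were examined in 2 droplet RNA libraries, both made from sorted immune cells of B16Ova tumors. These tumors grow from B16 melanoma cells that carry ovalbumin. The KO library came from mice with floxed Tcf7 alleles and the E8i-cre transgene (labelled Tcf7 cKO), and the WT library from mice with the same floxed alleles and no E8i-cre. All mice were female, the tumors grew under the skin of the flank, and they were taken on day 13. Macrophages are not where this Cre, which works in mature CD8 T cells, is meant to delete Tcf7, the gene of the T cell transcription factor TCF1. Each library pooled 3 tumors of its group, and the deposited barcodes carry no record of the tumor. CD8 T cells, CD4 T cells, a CD64-negative dendritic cell gate and a gate of remaining CD45+ cells that took in CD64+ cells were sorted, 2000 of each per tumor, mixed in equal parts and loaded at 7000 per channel. The sort therefore fixes in part how many macrophages a library holds.

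A barcode was counted as a C1q-positive macrophage when it had at least 500 UMIs (unique molecular identifiers, each 1 captured RNA molecule), 300 or more genes, no more than 10% of UMIs from mitochondrial genes, and at least 10 UMIs of C1qa, C1qb and C1qc together. It could hold at most 1 UMI of the type 1 dendritic cell (DC) genes Xcr1 and Clec9a, at most 2 of the mature DC genes Fscn1, Ccl22 and Cacnb3, and at most 1 of the T cell genes Cd3d, Cd3e and Cd3g. This rule took 39 KO and 30 WT cells, 69 of the 2074 cells that passed the quality limits (3.33%). They were 3.59% of the KO cells (exact binomial interval 2.57 to 4.88) and 3.04% of the WT cells (2.06 to 4.31). The genes in the rule are not results, and every other gene of these cells was compared as a description. Each group is a single library without replicates, so no test of KO against WT was possible and no p-value is given. All intervals are 95% and cover counting error only, not the spread between cells, tumors or mice.

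C1q is the recognition protein of the classical complement pathway, built from the products of C1qa, C1qb and C1qc. In tissues it is made largely by macrophages, which clear dying cells, digest them in lysosomes and handle the lipid and iron that this releases. In tumors such cells arise largely from blood monocytes, which are known to lose monocyte genes as they mature. Dendritic cells, by contrast, specialise in presenting antigen on MHC class II to T cells. Interferons drive macrophages to make the T cell attractants Cxcl9 and Cxcl10, and interleukin 4 drives an alternative programme with Arg1, Mrc1 and Retnla.

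The libraries held 1219 KO and 1120 WT barcodes with 11758449 and 9283014 UMIs, and 1086 and 988 barcodes were kept. They shared 1 cell barcode, and none of the macrophages had it. KO macrophages were the deeper cells, with a median of 6193 UMIs (867 to 33744) and 1964 genes, against 3082.5 UMIs (735 to 20322) and 1279.5 genes in WT macrophages. Median mitochondrial shares were 1.40% in KO and 1.25% in WT macrophages. The C1q sum had a median of 52 UMIs in KO and 27.5 in WT macrophages. Tcf7 itself had 56.3 CPM (the gene's UMIs scaled to a total of 1000000) in KO T cells with a Cd8a or Cd8b1 UMI and none of Cd4, against 151 CPM in the WT ones (115 and 202 UMIs), and 0 UMIs in the macrophages of both libraries. The exons that the Cre removes are not given in the sources used here, so reads outside them would not tell about the deletion.

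Few cells lay near the C1q limit. Just inside it, at 10 to 14 C1q UMIs, were 4 KO and 3 WT cells, with Apoe at 2047 and 3052 CPM. Just outside, at 5 to 9 C1q UMIs, were 2 KO and 4 WT cells, with Apoe at 1141 and 2338 CPM. Other markers did not order in this way: Csf1r was at 75.8 CPM in KO and 0 in WT cells inside the limit, against 0 in KO and 418 CPM in WT cells outside it, and Cd68 at 1896 and 704 CPM inside, against 0 and 2714 CPM outside. Among cells of the same exclusion limits, 23 KO and 9 WT cells had 1 to 4 C1q UMIs, and Apoe stood there at 353 and 439 CPM. A limit of 5 would have taken 41 KO and 34 WT cells, and a limit of 20 would have taken 33 and 20.

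The label was checked against macrophage genes outside the rule. Levels are CPM of the summed UMIs of a class, without the genes of the macrophage rule, and they rested on 357728 KO and 201664 WT macrophage UMIs. Apoe, the lipid carrier named as a marker of these cells, had 1512 CPM in KO and 2469 CPM in WT macrophages, against 876 and 960 CPM in KO and WT monocytes. It was found in 25 of 39 KO and 25 of 30 WT macrophages, and with each cell thinned to 2000 UMIs in 54.5% and 71.4% of those deep enough. T cells, which should lack it, had an Apoe UMI in 2.32% and 1.296% of thinned cells, at median depths of 4831 and 4365 UMIs. Csf1r, the receptor of the macrophage growth factor CSF1, had 335 and 397 CPM in KO and WT macrophages and 463 and 450 CPM in KO and WT monocytes. Adgre1, the F4/80 antigen, had 229 and 179 CPM in macrophages and 122 and 73.8 CPM in monocytes. Fcgr1, the CD64 receptor used in the sort, had 663 and 759 CPM in macrophages and 715 and 738 CPM in monocytes. None of these 3 genes was called against monocytes. Some markers of resident macrophages were scarce. Timd4, Marco and Vsig4 had 0 UMIs in both libraries, Cd163 had 1 UMI in KO and 0 in WT, and the apoptotic cell receptor Mertk had 30.7 and 19.8 CPM. Not all such genes were missing: the resident marker Folr2 was found in both libraries, and Mrc1, Stab1, Cbr2 and Fcrls stood above monocytes and DCs. The genes at 0 therefore do not show that resident features were lacking.

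Macrophages were then set beside monocytes (at least 2 Ly6c2 and 5 Lyz2 UMIs, at most 9 of C1q; 66 KO and 18 WT cells) within each library. A gene was called when it differed at least 2-fold the same way in both libraries, with both counting intervals clear of 1, among genes with at least 50 CPM in 1 of the classes in both libraries. Of 2720 genes measured against monocytes, 68 were higher in macrophages (2.5%) and 112 lower (4.12%). The ratios in this comparison and the next leave out the rule genes of both classes. Since monocytes were chosen by Ly6c2 and Lyz2, genes that go with these are not independent of the choice.

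The genes above monocytes included chemokines, lipid genes and cell cycle genes. Pltp, which transfers phospholipid between lipoproteins, had 496 CPM in KO macrophages against 67.1 CPM in KO monocytes, a ratio of 7.40 (5.27 to 10.6). In the WT library it had 404 against 20.5 CPM, a ratio of 19.7. The monocyte attractants followed. Ccl12 was 4.0 times the monocyte level in the KO library (3.59 to 4.46) and 28.4 times in the WT library (16.1 to 55.4). Ccl8 was 6.06 times the monocyte level in the KO library, and at least 18.9-fold higher in the WT library, where monocytes had 0 UMIs. Both gaps were narrower in the KO library, whose monocytes carried 770 CPM of Ccl12 and 159 CPM of Ccl8. A single KO macrophage held 701 of the 1093 KO UMIs of Ccl12. Ms4a7, a membrane protein of mature macrophages, stood at 3.78 and 7.01 times the monocyte level in the KO and WT libraries. The tetraspanin Cd81 stood at 32.2 times (13.3 to 102) and 21.1 times (3.50 to 862), the second ratio resting on 1 monocyte UMI. Trem2, a lipid receptor of macrophages, was 2.88 times (1.88 to 4.47) and 3.52 times (1.87 to 7.20) the monocyte level. Stmn1, a tubulin regulator of dividing cells, had 95.8 against 3.12 CPM in the KO library and 179 against 0 CPM in the WT library, at least 8.74-fold higher there.

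By list, 4 of 6 measured class II genes, 5 of 13 chemokines and 4 of 15 lipid genes were higher than in monocytes and none of these was lower, while 8 of 15 monocyte genes were lower. The class II genes were H2-Aa, H2-Ab1, H2-Eb1 and Cd74, and Cd74, the class II chaperone, had 12691 and 14038 CPM in KO and WT macrophages against 5951 and 5960 CPM in monocytes. Genes below monocytes were led by Hp, encoding the haemoglobin binder haptoglobin, at 28.2 against 675 CPM in the KO library and 24.9 against 500 CPM in the WT library. The chitinase-like gene Chil3 had 84.6 against 1235 CPM in the KO library and 140 against 883 CPM in the WT library. The protease inhibitor Slpi stood at 0.122 and 0.0162 of the monocyte level in the KO and WT libraries, and the glutathione enzymes Mgst1 and Gsr at 0.0789 and 0.0933, and at 0.143 and 0.156. Early response genes of dissociation were lower too, with 4 of 11 called and none higher, and Dusp1 at 313 and 669 CPM in macrophages against 1166 and 1825 CPM in monocytes. The part of handling stress in the other differences was not tested.

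Against the 3 DC classes together (type 1, type 2 and mature DCs; 136, 36 and 54 KO cells and 117, 40 and 84 WT cells), 187 of 2396 measured genes were higher in macrophages (7.8%) and 32 lower (1.34%). Against type 2 DCs alone 262 genes were higher (9.28%) and 182 lower (6.44%), against type 1 DCs 461 (16.7%) and 214 (7.77%), and against mature DCs 635 (22.3%) and 430 (15.1%). Type 1 DCs were taken by at least 3 UMIs of Xcr1 and Clec9a, mature DCs by at least 6 of Fscn1, Ccl22 and Cacnb3, and type 2 DCs by at least 50 of H2-Aa, H2-Ab1 and Cd74 with at least 2 of Flt3 and Cd209a, so these genes are no results here and other class II genes in type 2 DCs are not independent of the choice. Complement receptors and chemokines led. C5ar1, the receptor of complement fragment C5a, had 447 and 302 CPM in KO and WT macrophages and 0 UMIs in all 6 DC groups. C3ar1, the C3a receptor, had 581 and 536 CPM in macrophages and between 0 and 11.3 CPM in DCs. The chemokine Pf4 had 551 and 545 CPM in macrophages and 0 UMIs in all DC groups, with 146 of its 197 KO UMIs in 1 cell. Ccl2, which draws monocytes through CCR2, had 3002 and 2876 CPM in macrophages and 1.98 to 18.8 CPM in DCs. Ccl7 had 2865 and 3317 CPM, with at most 5.64 CPM in a DC group.

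The lists that stood above DCs were scavenger receptors, with 8 of 8 measured genes higher, iron and haem genes (6 of 7), chemokines (9 of 12), macrophage regulators (10 of 15) and lipid genes (8 of 15), with no member of these lower. Of the genes below DCs, 2 were in the class II list. H2-Oa, a subunit of the class II loading modulator DO, had 0 UMIs in the macrophages of both libraries and 73.1 to 205 CPM in the DC groups. H2-DMb2, a subunit of the loading catalyst DM, had 30.7 and 9.92 CPM in KO and WT macrophages and 170 to 560 CPM in DCs. Cytip, a scaffold of immune cell adhesion, had 64.3 and 89.3 CPM in macrophages, 325 to 1341 CPM in DCs and 416 and 369 CPM in KO and WT monocytes. In monocytes H2-DMb2 had 7.62 and 13.4 CPM and H2-Oa 3.05 and 0 CPM, so macrophages were called above monocytes for H2-Aa, H2-Ab1, H2-Eb1 and Cd74 but not for these 2.

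A total of 28 genes were higher than in monocytes and than in all 3 DC classes, 41.2% of the 68 and 15.0% of the 187. They held the chemokines Ccl7, Ccl8, Ccl12 and Pf4, the lysosomal proteases Ctsd and Lgmn, the receptors Mrc1, Stab1 and Trem2, the lipid genes Fabp4, Pltp and Nr1h3, and Hpgds, which makes prostaglandin D2. Lgmn, encoding legumain, had 1501 and 2177 CPM in KO and WT macrophages and 515 and 624 CPM in monocytes. Nr1h3, encoding the oxysterol receptor LXR alpha, had 72.7 and 164 CPM in macrophages and 10.7 and 40.3 CPM in monocytes.

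**Figure D1:**
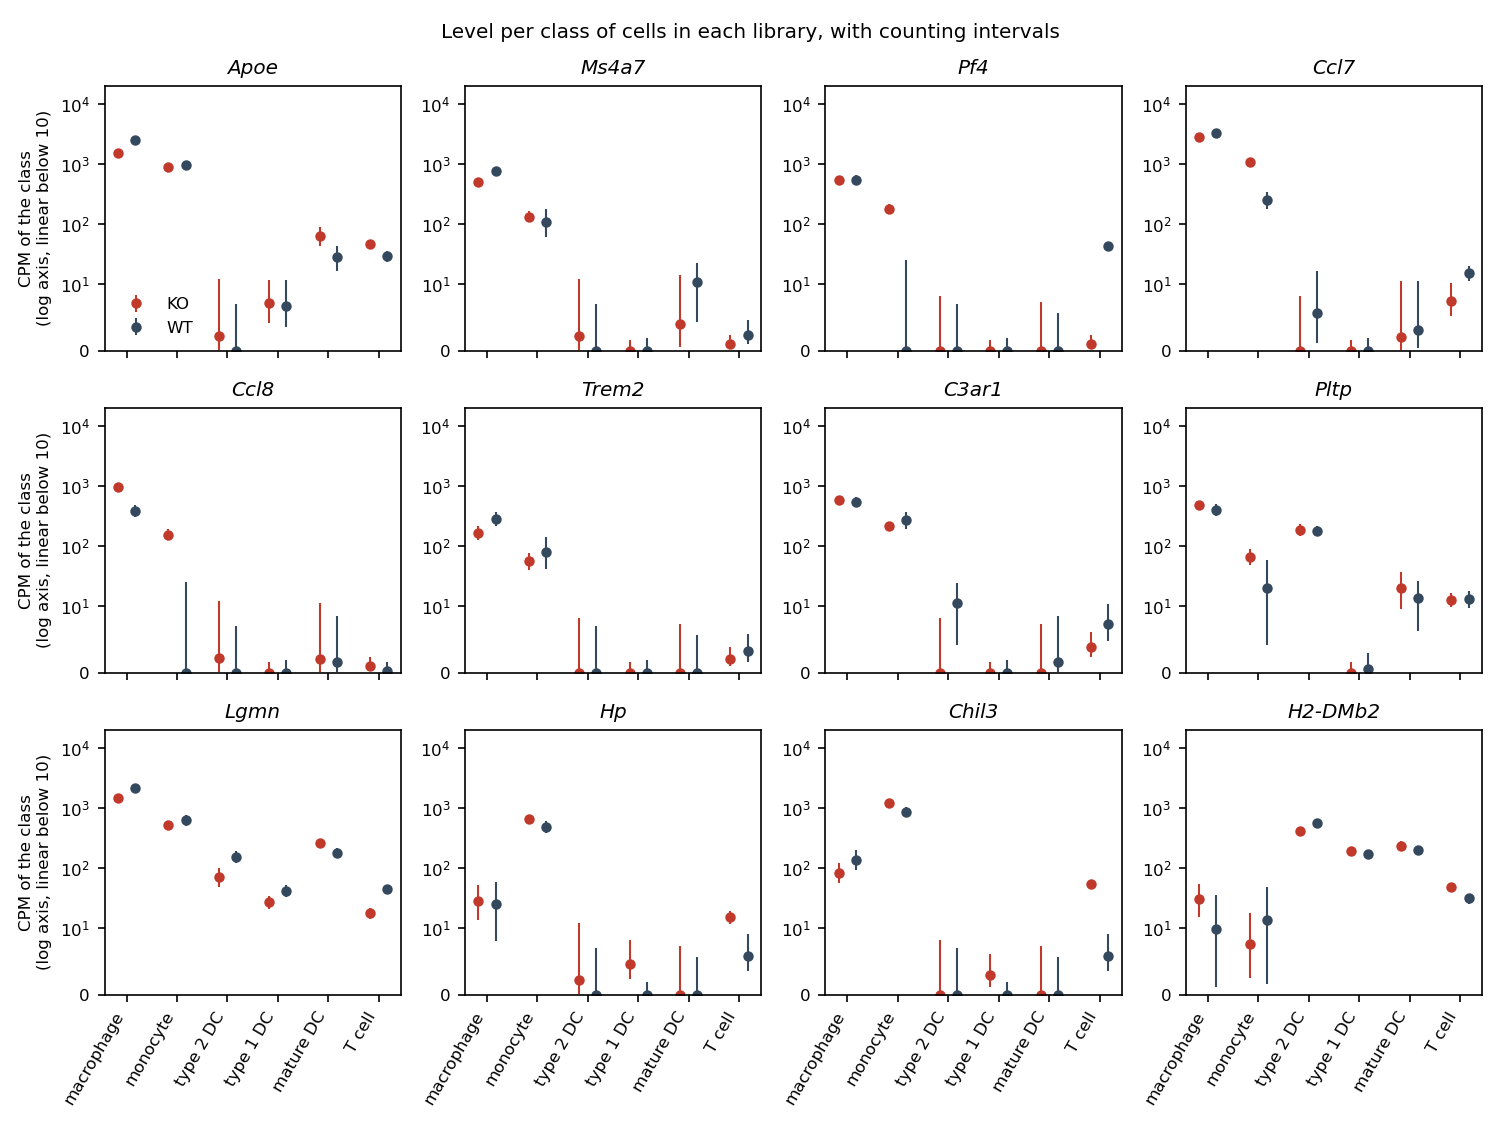
Level of 12 genes in 6 cell classes, as CPM of the class on a log axis that is linear below 10, with KO left of WT and bars showing the 95% counting interval of the single library. Pf4 and C3ar1 stand above 500 CPM in macrophages and near 0 in the 3 DC classes, Hp and Chil3 are highest in monocytes, and H2-DMb2 is highest in DCs.

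KO macrophages were next set beside WT macrophages. A gene was called at a ratio of at least 1.5-fold with a counting interval clear of 1, among the 2969 genes with at least 50 CPM in 1 library. In all, 191 genes were higher in KO macrophages (6.43%) and 150 lower (5.05%), around a median log2 ratio of -0.03 over all measured genes. A called gene had UMIs in a median of 15 KO cells if higher and of 12 WT cells if lower. In 23 of the 191 higher genes (12.04%) and 11 of the 150 lower genes (7.33%), more than 50% of the UMIs of the higher library came from 1 cell. Since macrophages came from pooled tumors, a difference carried by few cells may lie in 1 tumor, which the data cannot tell. Of 126 named genes, 49 had a log2 ratio of the other sign in at least 1 of 20 other settings, 16 of them genes that had been called.

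**Figure D2:**
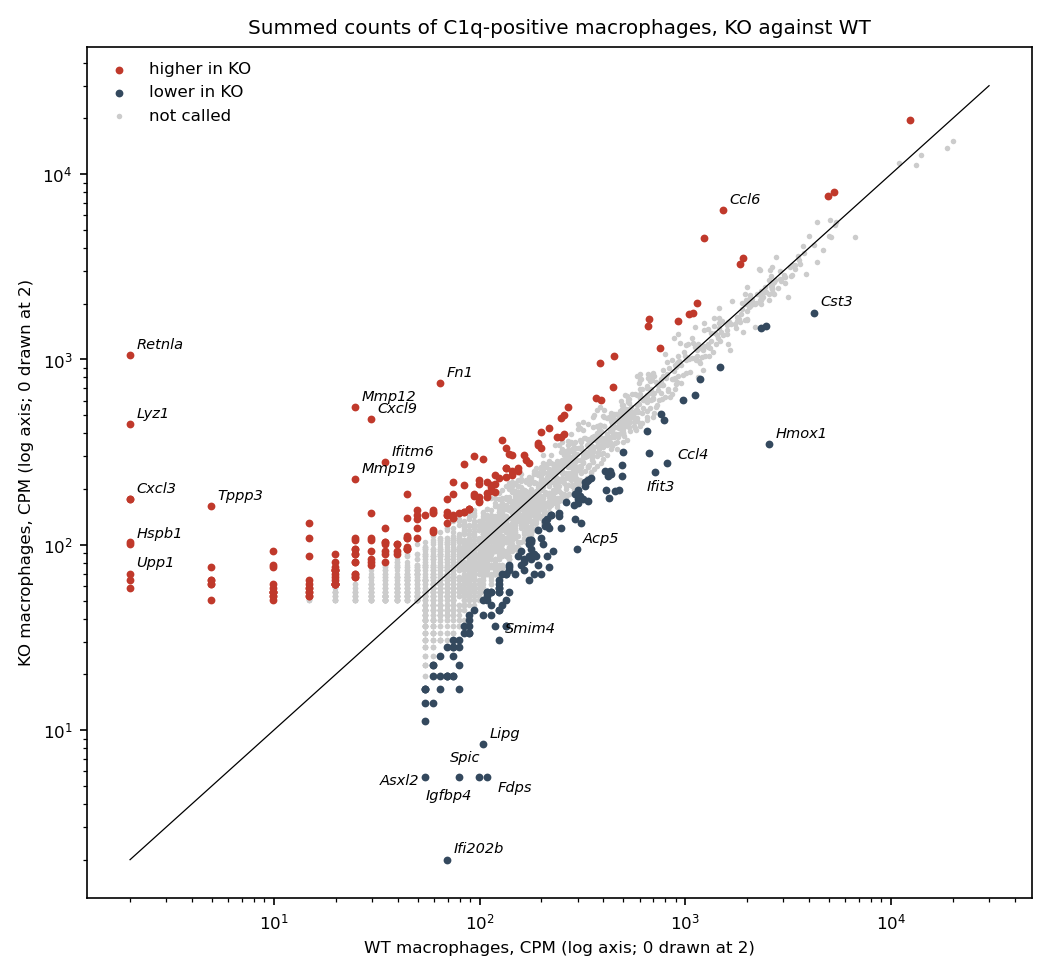
Summed level of each measured gene in KO macrophages (vertical axis) against WT macrophages (horizontal axis), both as CPM on log axes with 0 drawn at 2 and the line of equal levels. Red points are the 191 genes called higher in KO, dark points the 150 called lower, and labels mark the highest and lowest ranked genes, from Retnla (1059 against 0 CPM) to Ifi202b (0 against 69.4 CPM).

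Chemokines were the list with most calls, 8 of 14 measured members higher in KO macrophages and 1 lower, with a median log2 ratio of 1.07 beside -0.03 over all genes. The counts were similar in monocytes, with 9 of 15 measured members higher in KO, 2 lower and a median of 1.03. The called members were not all the same, since Ccl4 was lower in KO macrophages and higher in KO monocytes. Ccl6, a macrophage chemokine of rodents, had 6413 CPM in KO and 1532 CPM in WT macrophages (2294 and 309 UMIs in 35 and 24 cells), 4.19 times higher (3.71 to 4.73). A single KO cell held 540 of these UMIs and the 5 KO cells with Retnla, described further on, held 56.3%. Without those 5 cells its log2 ratio of 2.07 was 1.44. Ccl8 had 956 CPM in KO and 387 CPM in WT macrophages, 2.47 times higher (1.93 to 3.20), and Ccl9 had 1507 and 660 CPM, 2.28 times higher. Ccl3, an inflammatory chemokine, had 333 and 134 CPM, 2.48 times higher, with 83 of 119 KO UMIs in 1 cell. Ccl4, a close relative of Ccl3, went the other way, with 277 CPM in KO and 813 CPM in WT macrophages, a ratio of 0.340 (0.262 to 0.439), and its log2 ratio of -1.56 was -0.47 without the deepest 10% of cells. The monocyte attractants Ccl2, Ccl7 and Ccl12, each above 2000 CPM in both libraries, were not called, with ratios of 1.04, 0.864 and 1.32. Cxcl16, the ligand of CXCR6, had 221 CPM in KO and 248 CPM in WT macrophages, a ratio of 0.891 (0.617 to 1.3). The counts were 4 higher and 2 lower of 13 without the top cell of each gene in each library, and 5 higher and 2 lower of 14 with every cell thinned to 2000 UMIs.

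The CXCR3 ligands Cxcl9 and Cxcl10 draw activated T cells. Cxcl9 had 478 CPM in KO macrophages (171 UMIs in 12 of 39 cells) and 29.8 CPM in WT macrophages (6 UMIs in 2 of 30 cells), 16.1 times higher (7.23 to 44.4). With cells weighted alike, by the mean of the cells' CPM, its log2 ratio was 1.57 in place of 4.01. Both genes lie on the minus strand of chromosome 5, Cxcl9 at chr5:92321347-92328079 and Cxcl10 at chr5:92346638-92348889 (GRCm38). Thinned to 2000 UMIs, 10 of 33 KO cells (30.3%, 15.6 to 48.7) and 1 of 21 WT cells (4.76%, 0.120 to 23.8) had a Cxcl9 UMI, with overlapping intervals, beside 2.32% and 0.432% of KO and WT T cells. Cxcl10 had 1043 and 451 CPM, 2.31 times higher (1.83 to 2.94), but in 12 of 39 KO and 11 of 30 WT cells, and 236 of the 373 KO UMIs came from 1 cell. Without the top cell of each gene its log2 ratio was 0.39, in place of 1.21. Thinned, 21.2% of KO and 42.9% of WT macrophages had a Cxcl10 UMI, with overlapping intervals (8.98 to 38.9 and 21.8 to 66.0). Other classes held Cxcl9 too: 852 and 199 CPM in KO and WT type 2 DCs, 279 and 126 CPM in type 1 DCs, 593 and 35.3 CPM in mature DCs and 245 and 128 CPM in monocytes.

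The promoters of Cxcl9, Cxcl10 and Ifit3 are shown because these interferon-induced genes moved in different directions in KO macrophages. Each is the RefSeq sequence (GRCm38.p6) from 250 bases before to 50 after the gene start, 5′ to 3′ on the gene's strand. Capitals mark matches, on either strand, to the interferon-stimulated response element (ISRE; GAAA, any 2 bases, GAAA), the gamma-activated site (TTC, any 3 bases, GAA) or the NF-kB pattern (GGG, any 5 bases, CC).
Cxcl9, chr5:92328030-92328329, minus strand: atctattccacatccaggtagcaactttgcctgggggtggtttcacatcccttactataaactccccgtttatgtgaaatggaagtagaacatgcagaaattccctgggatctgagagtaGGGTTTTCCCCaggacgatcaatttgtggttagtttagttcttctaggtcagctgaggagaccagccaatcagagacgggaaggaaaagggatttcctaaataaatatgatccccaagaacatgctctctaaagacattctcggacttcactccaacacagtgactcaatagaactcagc
Cxcl10, chr5:92348840-92349139, minus strand: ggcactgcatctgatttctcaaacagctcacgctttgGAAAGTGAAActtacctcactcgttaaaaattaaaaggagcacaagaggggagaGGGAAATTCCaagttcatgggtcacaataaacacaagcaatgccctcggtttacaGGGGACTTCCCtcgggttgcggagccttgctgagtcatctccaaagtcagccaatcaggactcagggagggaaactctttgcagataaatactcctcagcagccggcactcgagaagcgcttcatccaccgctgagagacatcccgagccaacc
Ifit3, chr19:34583279-34583578, plus strand: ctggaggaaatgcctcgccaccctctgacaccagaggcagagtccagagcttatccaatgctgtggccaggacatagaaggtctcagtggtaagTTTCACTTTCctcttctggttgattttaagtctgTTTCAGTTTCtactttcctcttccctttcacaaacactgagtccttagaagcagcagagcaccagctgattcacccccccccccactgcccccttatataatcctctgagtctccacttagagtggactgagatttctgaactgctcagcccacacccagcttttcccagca
Cxcl9 held 2 overlapping NF-kB matches, Cxcl10 held 1 ISRE and 3 NF-kB matches of which 2 overlap, and Ifit3 held 2 ISRE matches. Among 27025 RefSeq promoters of this length, 3.49% hold the ISRE pattern, 8.47% the gamma-activated site and 50.4% the NF-kB pattern, so the last says little. Of the promoters found for the list of type I interferon genes, 7 of 13 hold the ISRE pattern, and of the interferon gamma list 8 of 12. A match is a run of letters and not a measured binding site.

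Of the genes induced by type I interferon, 7 of 15 measured members were called lower in KO macrophages and none higher, with a median log2 ratio of -0.48. The list as a whole differed little in level, with 15221 CPM summed in KO and 16086 CPM in WT macrophages. Its median share of a cell's UMIs was 0.990% in KO and 0.869% in WT macrophages. Ifit3, which binds foreign RNA together with other Ifit proteins, had 246 CPM in KO macrophages (88 UMIs in 18 cells) and 709 CPM in WT macrophages (143 UMIs in 16 cells), a ratio of 0.347 (0.263 to 0.456). Ifit1 had 75.5 and 218 CPM (0.346), and Usp18, which dampens interferon receptor signals, had 92.2 and 228 CPM (0.404). Rsad2, the antiviral enzyme viperin, had 198 and 412 CPM (0.482), and Isg15, a ubiquitin-like modifier, had 1479 and 2341 CPM (0.632). The remaining called members were Cmpk2 (0.544) and Bst2 (0.619). Irf7 (0.911) and Ifitm3 (1.27) were not called, so the list did not move as a whole. Shares of cells with an Ifit3 UMI overlapped, 46.2% of KO and 53.3% of WT macrophages, and T cells had it in 30.8% and 22.2%.

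The same list in monocytes went the other way. There 9 of 15 genes were higher in KO, where 5.09% of 3003 measured genes were, and none was lower (5.66% of genes), with a median log2 ratio of 0.69. Ifit3 stood at 747 CPM in KO and 255 CPM in WT monocytes, and Ifit1 at 623 and 208 CPM. WT monocytes were only 18 cells, and the difference between macrophages and monocytes was not tested. The macrophage count was 4 of 15 lower without the 5 KO cells that held Retnla, and 0 of 16 with cells thinned to 2000 UMIs. Over all measured genes 112 of 2890 and 98 of 3084 were lower in these settings, so 0 of 16 lies near the share of all genes. With each cell weighted alike, by the mean of the cells' CPM, the median log2 ratio of the list was -0.01.

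**Figure D3:**
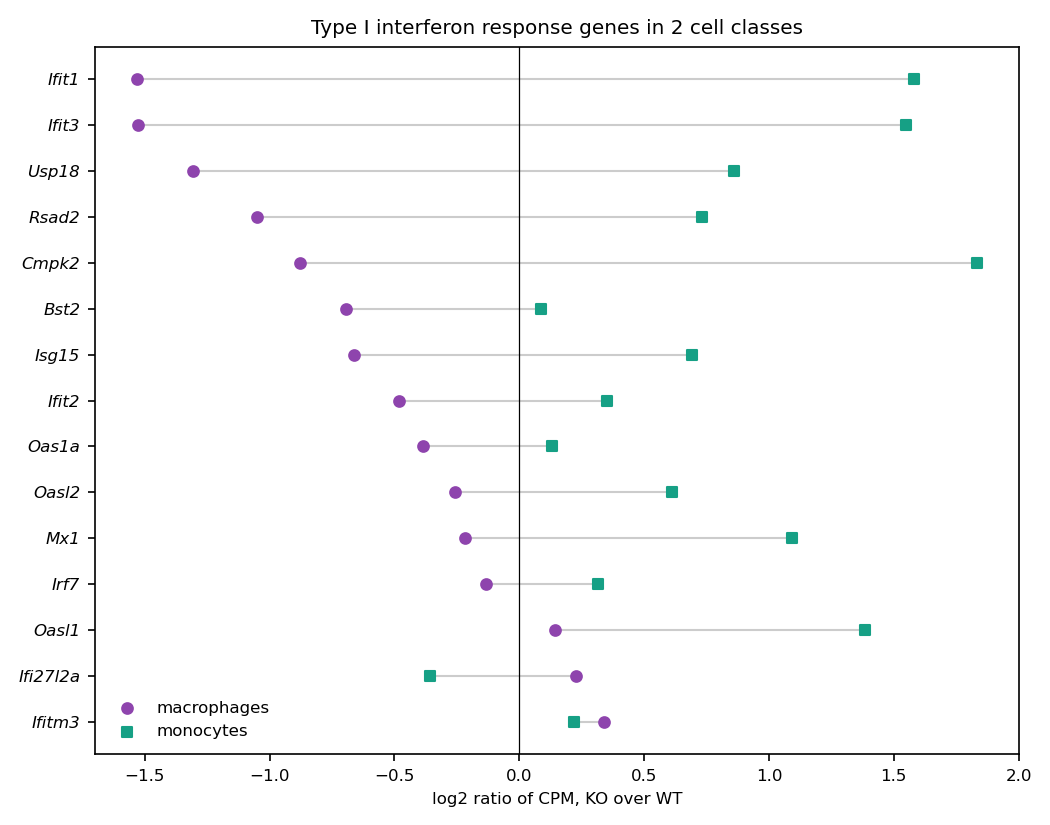
Log2 ratio of KO over WT for the 15 measured type I interferon genes in macrophages (purple circles) and monocytes (green squares), from summed counts of 1 library per group. Macrophage values lie mostly left of 0, down to -1.53 for Ifit1 and Ifit3, while monocyte values lie mostly right of 0, at 1.58 for Ifit1 and 1.55 for Ifit3.

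Interferon gamma genes were mixed, 3 of 14 measured being higher in KO macrophages and 4 lower, with a median log2 ratio of -0.06. Beside Cxcl9 and Cxcl10, the higher one was Iigp1, a GTPase acting on intracellular parasites, at 148 and 29.8 CPM (53 and 6 UMIs), of which 32 KO UMIs lay in 1 cell. The lower ones were Gbp2 (0.552), the signalling inhibitor Socs1 (0.496), the cytokine trap Il18bp at 44.7 and 124 CPM (0.361), and Cd274, encoding PD-L1, at 86.7 and 154 CPM (0.564, 0.331 to 0.959). Without the 5 Retnla cells 3 of 15 were higher and 1 lower. In monocytes 8 of 15 members were higher in KO and none was lower, with a median of 0.94.

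The alternative activation list had 5 of 9 measured members higher in KO macrophages, none lower and a median log2 ratio of 1.09. Retnla, a secreted protein induced by interleukin 4, had 379 UMIs in 5 of 39 KO cells (12.8%, 4.30 to 27.4; 1059 CPM) and 0 UMIs in 30 WT cells, at least 71.2-fold higher by a floor of 3 counts over the WT cells. A single cell held 249 of those UMIs, and it had 16 C1q UMIs among 20402 UMIs and 0 of Apoe. That cell did not pass a C1q limit set as a share of UMIs. With that limit the floor-based log2 ratio of Retnla was 4.72 in place of 6.15. The gene lies at chr16:48842551-48844461 on the plus strand of GRCm38. Arg1, encoding arginase 1, had 366 CPM in KO and 129 CPM in WT macrophages (131 UMIs in 9 cells and 26 UMIs in 5 cells), 2.84 times higher (1.85 to 4.51). Weighting cells alike turned its log2 ratio to -0.56. Mrc1, the mannose receptor CD206, had 187 and 74.4 CPM (2.52), and Il4ra, the interleukin 4 receptor chain, had 95.04 and 44.6 CPM (2.13). The lectin Mgl2 had 27 UMIs in KO and 1 UMI in WT macrophages, a ratio of 15.2 (2.51 to 623). Il10 had 0 UMIs in KO and 1 UMI in WT macrophages, and the LYVE1+ resident marker Folr2 had 39.1 and 34.7 CPM. The list's median was -0.50 with cells weighted alike, and 1 of 7 members was higher without the 5 Retnla cells. Retnla had a UMI in 0.186% of KO and 0.204% of WT T cells.

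Those 5 cells shared more than Retnla. They had 13131 to 33744 UMIs and 16 to 431 C1q UMIs each, and together held 32.6% of the UMIs of the 39 KO macrophages. All 160 UMIs of Lyz1, a lysozyme gene, came from 4 of them, and no other macrophage of either library had any. The cell with most Retnla held 104 of these Lyz1 UMIs. Lyz1 and Lyz2, like Ifit3 and Hspa1a and their neighbours, have near-identical copies between which the counting could split reads, so their values are uncertain. Of 266 KO UMIs of Fn1, encoding fibronectin, 255 (95.9%) were theirs, as were 96.3% of Mmp19, 94.8% of Tppp3, 90.4% of Thbs1, 79.4% of Crip1 and 70.7% of S100a10. Crip1 and S100a10 were singled out after their values were seen. They also had all 23 Cd2 UMIs, while Cd8a, Cd8b1, Cd4 and Lck were at 0 in all macrophages. They held 5.10% of the KO UMIs of the monocyte gene Ly6c2, 1.86% of Spp1 and none of Cxcl10. In 71 of the 191 genes called higher (37.2%), over 50% of the KO UMIs came from these 5 cells. The same count was not made over all measured genes, and the 5 cells held 32.6% of all UMIs. The 37.2% therefore does not set the called genes apart from others. Without them 124 of 2890 measured genes were higher and 112 lower in KO macrophages. The 5 cells were chosen by Retnla after the values were seen, so genes that differ between them and the other cells carry no test.

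Matrix genes followed in part. Of 11 measured, 5 were higher in KO macrophages (Mmp12, Mmp13, Mmp19, Fn1 and Thbs1) and Mmp14 was lower, with a median log2 ratio of 0.70. Mmp12, the macrophage elastase, had 551 CPM in KO and 24.8 CPM in WT macrophages (197 UMIs in 9 cells and 5 UMIs in 4 cells), 22.2 times higher (9.36 to 69.2), although 127 KO UMIs lay in 1 cell. The 5 Retnla cells held 4.57% of its KO UMIs, and without them its log2 ratio was 4.97. Mmp13, a collagenase, had 131 and 14.9 CPM (47 and 3 UMIs), 8.83 times higher (2.84 to 44.4). Fn1 had 744 and 64.5 CPM, 11.5 times higher (6.63 to 21.9), and Mmp19 had 226 and 24.8 CPM, 9.13 times higher (3.76 to 28.9). Without the 5 Retnla cells both turned, to log2 ratios of -0.50 for Fn1 and -1.0 for Mmp19, and 2 of 10 matrix genes were higher. In monocytes Mmp12 ran opposite, at 13.7 CPM in KO and 101 CPM in WT, where cells with up to 9 C1q UMIs were included. With a C1q limit of 5 UMIs for macrophages its log2 ratio was 2.95.

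Haem and iron genes were lower or not called, with 2 of 7 measured members lower, none higher and a median log2 ratio of -0.40. With a C1q limit of 5 UMIs 4 of 7 were lower, and without the 5 Retnla cells 1 was. Hmox1, encoding haem oxygenase 1, which breaks down haem, had 349 CPM in KO macrophages (125 UMIs in 31 cells) and 2569 CPM in WT macrophages (518 UMIs in 22 cells), a ratio of 0.136 (0.111 to 0.166). The gene lies at chr8:75093621-75100589 on the plus strand of GRCm38. A single WT cell held 292 of the 518 UMIs. The log2 ratio of -2.88 became -1.83 without the top cell of each gene in each library. A UMI was present in 48.5% of thinned KO cells and 66.7% of thinned WT cells, beside 0.774% and 1.296% of T cells. Hmox1 was also lower in KO monocytes, at 373 against 899 CPM. WT monocytes held up to 9 C1q UMIs per cell and KO monocytes up to 2. The monocyte value is therefore not independent of macrophage-like cells in that class, and their part in it was not tested. Blvra, whose enzyme reduces biliverdin made by haem oxygenase, had 109 and 198 CPM (0.550, 0.344 to 0.877). Spic, the transcription factor of haem-recycling macrophages, had 2 UMIs in 1 KO cell and 20 UMIs in 4 WT cells, a ratio of 0.0564 (0.00639 to 0.232), and all 4 WT cells also had Hmox1. The ferritin genes Fth1 (15174 and 20004 CPM) and Ftl1 were the most abundant of the list and were not called.

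Lipid genes did not move together, with 1 of 15 measured higher, 2 lower and a median log2 ratio of 0.03. Trem2 had 165 CPM in KO and 288 CPM in WT macrophages (59 and 58 UMIs, 20 cells each), a ratio of 0.573 (0.392 to 0.839). Lipa, the lysosomal lipase, had 131 and 312 CPM (0.421), and Apoe, outside the list, had a ratio of 0.612 (0.541 to 0.693). Gpnmb, a glycoprotein of lipid-laden macrophages, was higher at 184 and 94.2 CPM (1.96). Spp1, encoding osteopontin, had 601 and 526 CPM and was not called, but its log2 ratio of 0.19 was -3.29 at a C1q limit of 5 UMIs and 2.22 without the top cells. The LXR gene Nr1h3 (0.444), Ms4a7 (0.666), Maf (0.663) and Hpgds (0.370) were lower as well, 4 genes that also stood above DCs or monocytes in both libraries. Acp5, an acid phosphatase, had 95.04 and 298 CPM (0.319). Fdps, an enzyme of sterol synthesis, had 2 UMIs in KO and 22 in WT macrophages, a ratio of 0.0512 (0.00584 to 0.208).

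Lysosomal genes had 2 of 20 members lower, Cst3 among them, none higher and a median log2 ratio of -0.28. The lower value of Cst3, the cathepsin inhibitor cystatin C, at 1789 and 4240 CPM, rested on 1 WT cell with 564 of 855 UMIs, and without the top cells its log2 ratio was 0.18 and no member was called. With a C1q limit of 20 UMIs 6 of 20 were lower. Ctsb had 4601 and 6665 CPM, a ratio of 0.690. None of the 6 class II, 13 class I and 6 Fc receptor genes measured was called in either direction, with medians of -0.20, -0.13 and -0.01. H2-Ab1 had 2242 and 2693 CPM, B2m, the class I light chain, 2085 and 1969 CPM, and the CD64 gene Fcgr1 a ratio of 0.873. With a C1q limit of 20 UMIs 1 class II gene was higher and 2 were lower.

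Co-stimulatory and checkpoint ligands had 1 of 7 measured members higher and 3 lower. The lower ones were Cd274, Cd40 at 58.7 and 124 CPM (0.474, 0.252 to 0.881) and Cd48 at 171 and 263 CPM (0.649). The higher one was Pilra, an inhibitory receptor, at 109 and 44.6 CPM (2.44). Cd86, a ligand of CD28, had 24 and 14 UMIs, or 67.1 and 69.4 CPM, a ratio of 0.966 (0.480 to 2.02), and Cd80 had 4 and 1 UMIs, too few to compare. Vsir, encoding VISTA, had 154 and 94.2 CPM and was not called (1.63, 0.953 to 2.91). Without the 5 Retnla cells none of the 7 was lower, and thinned none of 6 was called. In these settings 112 of 2890 measured genes were lower, and 61 of 3084 were higher and 98 lower. Counts of 0 in so short a list thus tell little.

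Inflammatory genes were few. Of 8 measured, Cxcl2 (260 and 134 CPM, 1.94), Cxcl3 (63 UMIs in 3 KO cells and 0 in WT, at least 11.8-fold higher) and the NF-kB inhibitor Tnfaip3 (19 and 3 UMIs, 3.57) were higher. A single KO cell, the one with S100a8 and S100a9, had 1.35% of its UMIs in inflammatory genes and 0.892% in neutrophil genes. Without the cells over 0.5% other-cell UMIs, which included it, the log2 ratio was -0.076 in place of 0.96 for Cxcl2 and 2.28 in place of 3.57 for Cxcl3. Il1b was lower, at 129 and 213 CPM (0.603, 0.389 to 0.936), with 32 of 43 WT UMIs in 1 cell. Tnf had 9 UMIs in KO and 3 in WT, Nos2 had 1 and 0, and Il12b had 0 and 1. Scavenger receptors had 2 of 11 higher, Mrc1 and Cd36. The oxidised lipid receptor Cd36 stood at 137 and 49.6 CPM (2.76, 1.38 to 6.12). Of the macrophage regulators, Cd14 (218 and 74.4 CPM, 2.93) and Itgam (1.79) were higher, and Maf and Nr1h3 lower, of 16. Without the 5 Retnla cells none of 17 regulators was higher and 1 was lower.

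Monocyte genes had 5 of 14 measured members higher in KO macrophages, 1 lower and a median log2 ratio of 0.45. The higher ones were Fn1, Thbs1, S100a4 (120 and 59.5 CPM), S100a6 (3519 and 1899 CPM, 1.85) and Lyz2 (7615 and 4924 CPM, 1.55). The lower one was Ms4a4c (0.621). Without the 5 Retnla cells none of the 14 was called in either direction, with Lyz2 at a log2 ratio of 0.09 and S100a6 at 0.17, and without the deepest 10% of cells 1 was higher and 2 lower. The monocyte receptor gene Ccr2 (321 and 278 CPM), Plac8 and Chil3 were not called, and Hp lay under the limit of 50 CPM. Outside the lists, Ifitm6 had 280 and 34.7 CPM (8.05, 3.77 to 20.5), Tppp3 58 UMIs in KO and 1 in WT, and Upp1 25 UMIs in 7 KO cells and 0 in WT, at least 4.70-fold higher. Lower genes outside the lists included Ifi202b, with 0 UMIs in KO and 14 in 4 WT cells, at least 8.28-fold higher in WT, and Igfbp4, with 2 and 16 UMIs. Ifi202b, an interferon-inducible gene, had 0 UMIs in every KO class, T cells included, against 47.0 CPM in WT monocytes, 53.6 to 67.6 CPM in the WT DC classes and 6.74 CPM in WT T cells. No source used here names the strain of the mice, so for Ifi202b a difference in strain background and one in Tcf7 genotype cannot be told apart.

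**Figure D4:**
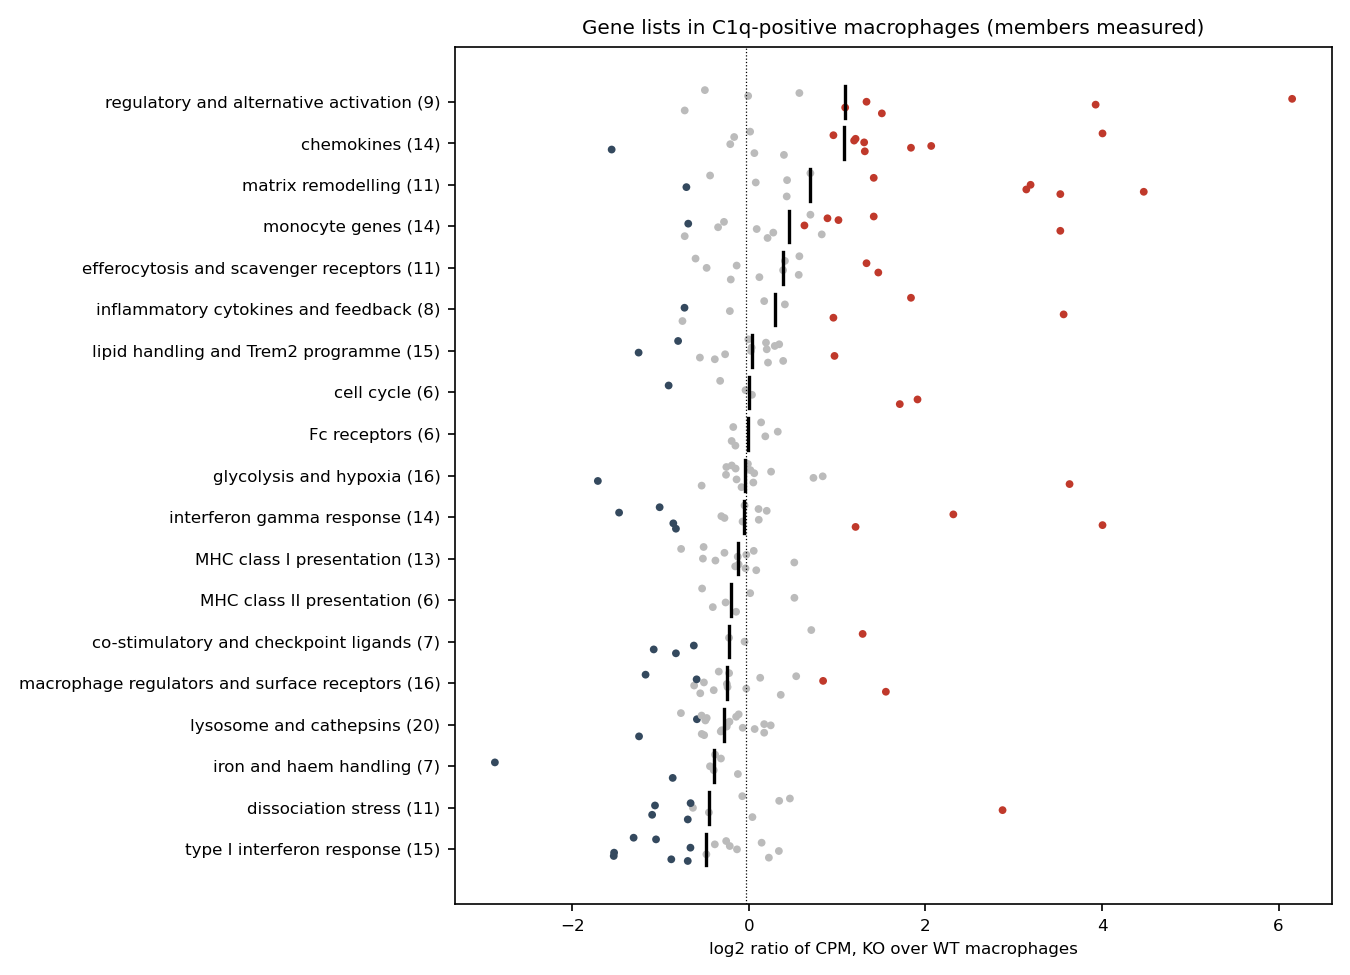
Log2 ratio of KO over WT macrophages for each measured member of 19 gene lists (number measured in brackets), with red points called higher, dark points called lower, grey points not called, black bars at the list medians and a dotted line at the median of all measured genes, -0.03. Medians run from 1.09 for alternative activation to -0.48 for type I interferon genes, and members of most lists lie on both sides.

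The macrophages differed widely among themselves. Class II genes took between 0% and 5.85% of a cell's UMIs in KO and between 0% and 7.81% in WT macrophages, with medians of 1.13% and 1.01%. They took under 1% in 18 of 39 KO and 15 of 30 WT cells, and at least 3% in 8 and 6 cells. The rule thus joined class II-low and class II-high cells in both libraries, and the sort gate that took in CD64+ cells was labelled MHCII-negative. Over cells, the shares of lipid and lysosome genes went together weakly (Pearson r 0.42 over 39 KO and 0.31 over 30 WT cells), and class II and lysosome shares had an r of 0.06 in KO and 0.54 in WT, a difference that was not tested. The share of monocyte genes followed UMIs per cell in KO (0.58) and not in WT (0.02). The cells of a library share its depth and its pooled tumors, so these values are descriptions.

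Genes were also counted together within cells. Of 12 KO cells with Cxcl9 and 11 with Spp1 among 39, 1 held both. Cxcl9 cells included 5 with Cxcl10, 6 with Ccl8, 3 of the 20 with Trem2 and none of the 9 with Arg1. Spp1 cells included 10 of the 20 with Trem2 and 5 of the 9 with Arg1. In WT macrophages 2 cells had Cxcl9 and 8 had Spp1, and none held both. These overlaps were picked after the values were seen, and each is read from single UMIs in cells of unlike depth.

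Marker genes of other cells were searched in the macrophages. The T cell list, of which 7 of 10 genes were found in the data, summed to 69.9 CPM in KO macrophages, nearly all from Cd2. It summed to 4.96 CPM in WT macrophages, where Cd2 was at 0. Neutrophil genes summed to 344 and 39.7 CPM, and S100a8 (63 UMIs) and S100a9 (37 UMIs) came from 1 KO cell, with Ly6g and Retnlg at 0. The melanoma list summed to 145 and 99.2 CPM, led by Dct with 24 and 6 UMIs. NK genes summed to 5.59 and 0 CPM, B cell genes to 2.80 and 19.8 CPM, plasmacytoid DC genes to 55.9 and 34.7 CPM, and conventional DC genes to 540 and 590 CPM. Of the 11 conventional DC genes, 6 were at 0 in KO and 2 in WT macrophages, and Zbtb46 and Cd209a were at 0 in both. The WT cell with 564 Cst3 and 32 Il1b UMIs had the highest conventional DC share of any macrophage, 0.279% of its UMIs. Fibroblast genes were at 0 in all 8, endothelial genes summed to 25.2 and 9.92 CPM and erythroid genes to 25.2 and 0 CPM. The dissociation stress list summed to 3419 and 4483 CPM, with Jun (0.478), Junb (0.633), Atf3 (0.619) and Dusp1 (0.468) lower and Hspa1a higher in KO macrophages. The part of handling in the other differences was not tested.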

How the data were processed

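The 2 libraries, Tcf7 cKO and WT, were measured as droplet single-cell RNA. The authors deposited raw UMI counts per gene and barcode, whole numbers with no normalization. The submitters' processing notes name Cell Ranger 1.3 and the mm10 build, while the software version written in the matrix headers is 3.0.2, per the file headers. Of 27998 genes, 27722 (99.0%) matched the GENCODE M21 annotation on GRCm38, which gave positions.

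Cells were filtered, placed in classes by gate genes and summed per class and library. Levels are CPM, computed without the macrophage gate genes. Exact intervals were Poisson for levels, conditional binomial for ratios and Clopper-Pearson for shares, and a group at 0 was set to a floor of 3 counts. Thinning drew 2000 UMIs per cell and left out 6 KO and 9 WT macrophages. Scrublet at an expected rate of 6% called 5 KO and 6 WT barcodes (0.460% and 0.607%), none a macrophage, and none was removed. Python 3.11.15, numpy 2.4.6, scipy 1.17.1, pandas 2.3.3, scanpy 1.11.5 and matplotlib 3.10.9 were used, with edgeR 4.0.16 for an alternative scaling only. The calling step was also run on simulated counts with planted changes. Those counts held counting error only and no spread between cells, so that run cannot tell how such spread affects the calls.

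Named genes were the 12 highest and 12 lowest in KO over WT, the 10 highest and 8 lowest against monocytes, the 8 highest and 4 lowest against DCs, up to 4 per list, and core macrophage genes. Other genes named were chosen after their values were seen. The members and lists were chosen with earlier results of these data known. Alternatives covered scaling, level filter, fold, C1q limit, mitochondrial limit, doublets, depth, other-cell UMIs, cycling cells, top cells and thinning, and 3 were added after seeing the data. Some genes are not reported here.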

Additional observations from a re-analysis of the deposited data

Results flagged for a closer look

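Among the named genes, many picked for their KO to WT ratio in macrophages, 11 were called in opposite directions in macrophages and in monocytes. The median of 1 gene list also had opposite signs. Genes called in opposite directions, or the same way, were not counted over all genes, so the 11 have no baseline. Over all measured genes 6.43% were higher and 5.05% lower in KO macrophages, and 5.09% and 5.66% in KO monocytes. The difference was not tested in any case, and the WT monocytes were 18 cells.

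Among the genes picked by the naming rule, 4 of the type I interferon list were called lower in KO macrophages and higher in KO monocytes. The log2 ratio of KO over WT was -1.53 for Ifit1 in macrophages (1.58 in monocytes), -1.53 for Ifit3 (1.55), -1.31 for Usp18 (0.86) and -1.05 for Rsad2 (0.73). The median of the type I interferon list was -0.48 in macrophages and 0.69 in monocytes. The chemokine Ccl4 showed the same pattern, at -1.56 in macrophages and 1.03 in monocytes.

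The other genes were higher in KO macrophages and lower in KO monocytes. Mmp12 stood at 4.47 in macrophages and -2.88 in monocytes, Cenpa, a centromere histone, at 1.91 and -3.40, and Cd36 at 1.47 and -2.48. Thbs1 stood at 1.41 and -1.52, Gpnmb at 0.97 and -3.50, and Cxcl2 at 0.96 and -2.08. With a C1q limit of 5 UMIs the macrophage value was 2.95 for Mmp12, 0.55 for Cd36 and 0.70 for Thbs1. It was 0.78 for Gpnmb, 0.91 for Cxcl2 and 2.06 for Cenpa. The part of cells near the C1q limit in these opposite signs was not tested.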

How the results depend on the processing

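No paired analysis was possible because there was 1 library per group. The 191 genes higher and 150 lower in KO macrophages became 64 and 56 with a filter of 200 CPM, 133 and 92 at 2-fold, 182 and 86 without the top cell of each gene, and 61 and 98 with cells thinned to 2000 UMIs. Without the 5 Retnla cells, a setting added after seeing the data, they became 124 and 112. The share of higher genes among all called was 56.0% at first, 67.9% without top cells and 38.4% after thinning. The log2 ratio of the KO to the WT scaling factor was -0.04 with TMM and -0.02 with median-of-ratios scaling. Dividing by these factors raised all log2 ratios of KO over WT slightly. The calls became 211 higher and 125 lower with TMM scaling, and 204 and 134 with median-of-ratios scaling. Against monocytes 129 genes were higher and 184 lower at 1.5-fold. Against all 3 DC classes 54 were lower at 1.5-fold and 49 with a filter of 20 CPM. Some log2 ratios reversed, and the cause was not tested. With cells weighted alike (mean CPM over cells) the alternative activation median was -0.50, Arg1 -0.56, Cd81 -0.068, Lyz2 -0.22 and Thbs1 -0.90. Thinned, Cd36 was -0.65, Cd48 0.57, Cd81 -0.43, Il18bp 0.35, Pilra -2.24 and Thbs1 -0.066. Without the deepest 10% Cst3 was 0.086, Il1b 1.42, Mrc1 -0.29 and Thbs1 -1.80, and without top cells Cst3 was 0.18 and Il1b 0.30. Without cycling cells Birc5 was -1.01, without cells over 0.5% other-cell UMIs Cxcl2 was -0.076, and with a C1q limit of 20 Stmn1 was 0.31. In settings added later, Fn1 was -0.50, Mmp19 -1.0 and Thbs1 -1.40 without the Retnla cells, Cst3 0.12 and Il1b 0.94 without 2 WT cells, and Stmn1 0.21 without cells under 3000 UMIs. Few cells limit every value.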

Other observations

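A total of 7 of 39 KO macrophages (17.9%) and 4 of 30 WT macrophages (13.3%) had at least 3 UMIs over the 7 genes Mki67, Top2a, Birc5, Ube2c, Cdk1, Ccnb1 and Ccnb2, and Mki67 had 2 UMIs in each library. Of 6 measured cell cycle genes, Birc5 (29 UMIs in KO and 5 in WT) and Cenpa (20 and 3) were higher in KO macrophages and Stmn1 (34 and 36 UMIs, ratio 0.532) was lower. With cells thinned to 2000 UMIs 0 of 8 were higher and 6 lower. With the C1q limit set as a share of UMIs 0 of 8 were higher and 3 lower. With a C1q limit of 20 UMIs 2 of 6 were higher and 0 lower. The count of cells with 3 UMIs was not adjusted for depth, and KO macrophages were the deeper cells. Cell cycle genes took a median of 0.124% of a cell's UMIs in KO and 0.140% in WT macrophages.

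Glycolysis and hypoxia genes hardly differed, with 1 of 16 measured higher, 1 lower and a median log2 ratio of -0.05. The higher one was Egln3, an oxygen-sensing hydroxylase, with 22 UMIs in KO and 1 in WT (ratio 12.4, 2.0 to 512). The lower one was Ero1l, an oxidase of protein folding, at a ratio of 0.305.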
